A study of Mus musculus with 26 samples.

Results

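The transcripts of 7 regulators of naive pluripotency, Esrrb, Nr5a2, Tfcp2l1, Tbx3, Prdm14, Zfp42 and Dppa3, were followed through every group of an RNA-seq series on mouse embryonic stem cells (ESCs). They were picked by gene symbol from the 55291 genes of the deposited table, all 7 were found under that symbol, and all 7 were among the 20953 genes that passed the low-count filter. The libraries held poly(A) RNA of R1 ESCs, an established mouse line, grown on gelatin with LIF, and comprised 13 groups of 2 replicates each.

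The study asked how the transcription factor DUX drives ESCs towards a totipotent-like state that resembles cells of the 2-cell embryo (2C-like). Wild-type cells were left untreated (ESC), given the solvent alone (DMSO, for a time the labels do not state), given 0.53 µM retinoic acid for 48 h (RA), or given 4 nM pladienolide B, an inhibitor of the splicing factor SF3B, for 4 days (PlaB). Other cells carried doxycycline-inducible constructs and were sampled at 24 h: Dux (Dux OE), Dux with the R70A substitution (Dux R70A OE) and Zscan4 (Zscan4 OE), with doxycycline at 4 µg/mL for both Dux constructs and no dose given for Zscan4. Dux was knocked down by short hairpin RNA (Dux KD) in cells given RA, PlaB or the Zscan4 construct, and a super-enhancer at the Tdpoz gene cluster was deleted with CRISPR (SE KO) in cells given RA, PlaB or the Dux construct. For Dux KD with the Zscan4 construct the labels give no sampling time, so it may not match the 24 h of Zscan4 OE. The sources do not say which hairpin was sequenced, whether the SE KO cells were 1 clone, or whether replicates came from separate cultures, so p-values measure the spread between these libraries, which may be technical. No group was sequenced with Dux KD or SE KO alone.

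A few labels and target genes bear on what follows. The genotype field of SE KO RA replicate 1 reads wild type although its title names the deletion, and the treatment field of both Dux KD Zscan4 OE libraries reads "no". The annotated Dux gene (Duxf3 in the table) had 191 and 181 counts in PlaB and 1 and 0 counts in Dux KD PlaB, 49 and 59 counts in RA and 16 and 6 counts in Dux KD RA, and 27 and 17 counts in Zscan4 OE and 1 and 0 counts in Dux KD Zscan4 OE. It had 55 and 48 counts in Dux OE but 0 counts in both libraries labelled Dux R70A OE, against 3 and 0 in ESC, so that the R70A construct was not visible in this gene's counts. Zscan4c had 1545 and 1897 counts in Zscan4 OE and 12 and 15 counts in Dux KD Zscan4 OE, below the 92 counts of each ESC library, whereas Zscan4f had 247 and 176 counts in Dux KD Zscan4 OE and 50 and 32 counts in ESC. Zscan4 genes are near-identical copies, so reads may have been split among them. Library totals lay between 14401452 and 39402840 counts, and 3 counts corresponded to 0.0796 to 0.226 CPM (counts per 1000000 counted reads).

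Naive pluripotency is the state of the pre-implantation epiblast, which ESCs keep under LIF. It is held by a network in which LIF acts through STAT3, Wnt signals relieve repression by the factor Tcf7l1, and FGF-ERK signalling pushes cells towards a primed state. Esrrb and Nr5a2 are orphan nuclear receptors that bind closely related DNA sites, Esrrb being a main target freed from Tcf7l1. Tfcp2l1 is a CP2-family factor induced by STAT3, and Tbx3 is a T-box factor that can sustain self-renewal. Prdm14 represses FGF receptor signalling and the de novo DNA methyltransferases. Zfp42 encodes REX1, a zinc-finger protein used as a marker of the naive state, and Dppa3 encodes STELLA, a maternal factor that limits DNA methylation through UHRF1.

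The genes lie apart from each other in the table, whose positions match GENCODE M21 (GRCm38) for all 7. Esrrb lies at chr12:86361117-86521628 on the plus strand, Tfcp2l1 at chr1:118627945-118685168 on the plus strand, and Nr5a2 at chr1:136842571-136960448 on the minus strand. Tbx3 lies at chr5:119670669-119684724 on the plus strand, and Prdm14 at chr1:13113457-13127163 on the minus strand. Zfp42 lies at chr8:43295063-43306980 on the minus strand and Dppa3 at chr6:122626410-122630272 on the plus strand. Each value below is the sum over all exons of a protein-coding gene, untranslated regions included, so transcript isoforms are not separated.

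RefSeq promoter sequences (GRCm38.p6) matched 4 of the 7 genes, Esrrb, Nr5a2, Tfcp2l1 and Zfp42. The 250 bases before an annotated start are shown for Esrrb and Nr5a2, which moved together in PlaB, and for Zfp42, which did not follow them there. Esrrb and Nr5a2 each have another annotated start, further inside the gene, whose sequence is not shown. Which start these cells used was not determined. The Esrrb sequence is chr12:86360867-86361116 on the plus strand, that of Nr5a2 chr1:136960449-136960698 on the minus strand and that of Zfp42 chr8:43307010-43307259 on the minus strand, each 5′ to 3′ towards the gene. Capitals mark matches to the motifs named after the sequences.
Esrrb: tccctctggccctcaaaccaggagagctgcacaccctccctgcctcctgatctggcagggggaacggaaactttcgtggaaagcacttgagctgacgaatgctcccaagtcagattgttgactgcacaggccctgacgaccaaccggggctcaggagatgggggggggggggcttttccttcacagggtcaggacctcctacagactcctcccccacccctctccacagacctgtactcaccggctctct
Nr5a2: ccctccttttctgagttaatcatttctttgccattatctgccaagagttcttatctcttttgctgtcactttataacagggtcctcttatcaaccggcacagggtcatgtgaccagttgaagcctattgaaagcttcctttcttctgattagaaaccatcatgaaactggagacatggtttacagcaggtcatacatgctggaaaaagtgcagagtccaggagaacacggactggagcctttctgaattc
Zfp42: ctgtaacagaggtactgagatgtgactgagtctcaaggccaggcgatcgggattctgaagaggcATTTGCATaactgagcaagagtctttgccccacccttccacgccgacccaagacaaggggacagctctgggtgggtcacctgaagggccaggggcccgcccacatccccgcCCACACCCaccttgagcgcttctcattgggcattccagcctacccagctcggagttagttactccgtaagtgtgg

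The search covered 4 motifs on both strands of the 6 promoter windows of these 4 genes, each the 250 bases before a start. The motifs were the octamer ATTTGCAT, the KLF motif GGGTGTGG, the STAT motif TTCCNGGAA and the extended monomer site TCAAGGTCA of Esrrb and Nr5a2. Bases after the start were not searched. The octamer occurred once in the Zfp42 window, beginning 186 bases before the start, and in 1.6% of 32851 RefSeq promoters searched over the same 250 bases. The KLF motif occurred once, also in Zfp42, on the other strand (CCACACCC) beginning 75 bases before the start, and in 3.2% of all promoters. No other match was found in the 6 windows, where the background was 0.91% of promoters for TTCCNGGAA and 0.39% for TCAAGGTCA. The 4 motifs do not overlap each other in these windows, and a match or its absence is a description of these letters alone.

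The levels differed widely between the genes. Per kilobase of exon (RPKM, the CPM divided by exon length), the median over the 13 group means was 456 for Zfp42, 136 for Esrrb, 122 for Tfcp2l1, 37.1 for Tbx3, 26.3 for Nr5a2, 11.4 for Prdm14 and 1.59 for Dppa3. The span from the lowest to the highest group was 24.8-fold for Nr5a2, 24.1-fold for Dppa3, 12.7-fold for Esrrb, 11.6-fold for Prdm14, 8.74-fold for Zfp42, 4.23-fold for Tfcp2l1 and 3.67-fold for Tbx3. ESC held the highest level of Esrrb, Nr5a2, Tfcp2l1 and Prdm14, while PlaB held the lowest level of Esrrb, Nr5a2, Tbx3 and Prdm14 and the highest of Dppa3. Dppa3 rested on 6 to 246 counts a library. From here on, levels of a gene are CPM scaled by TMM, a correction for library composition, and are compared within that gene only.

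**Figure D1:**
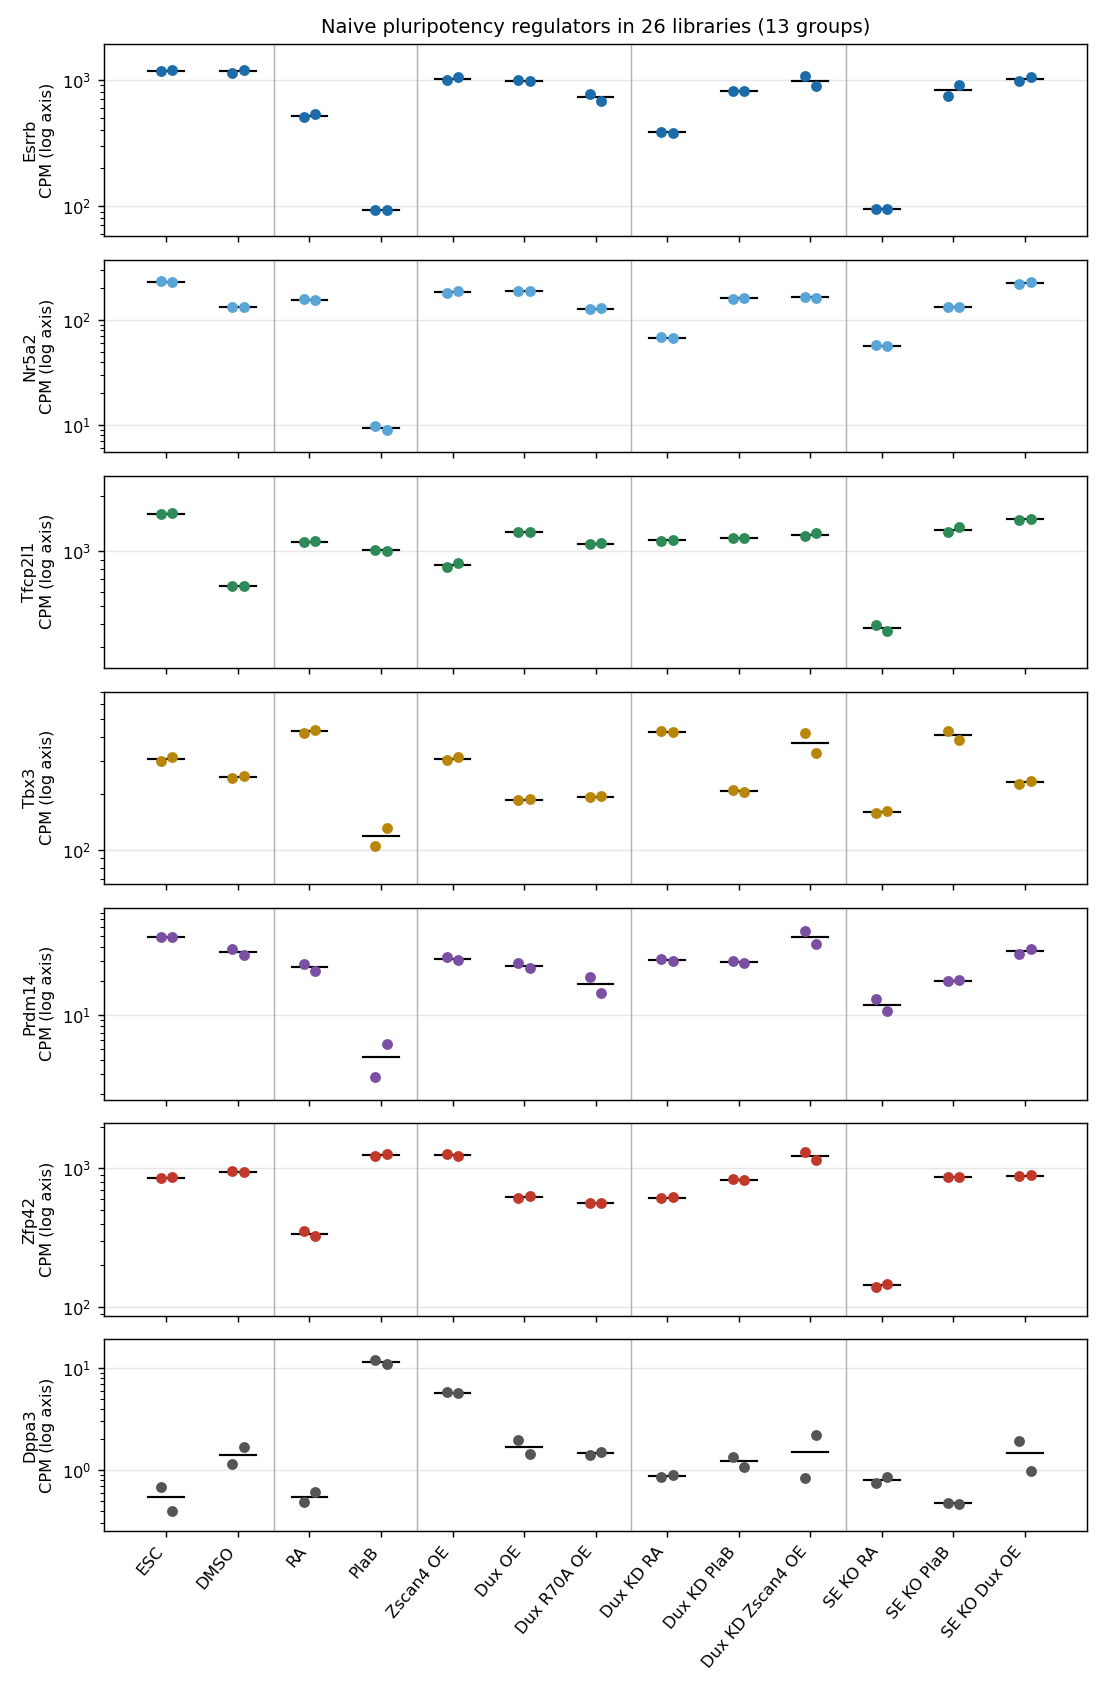
Level of each regulator in all 26 libraries, as CPM on a log axis with its own range for each gene. Points are the 2 replicates of a group and bars their mean. Esrrb, Nr5a2 and Prdm14 are lowest in PlaB (means of 92.1, 9.34 and 4.22 CPM), where Dppa3 is highest (11.4 CPM).

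Esrrb was highest in ESC, at 1165 and 1182 CPM, and in DMSO, at 1122 and 1198 CPM, 2 groups whose replicates overlapped. A middle range followed, with Zscan4 OE at 987 and 1040 CPM, SE KO Dux OE at 978 and 1044 CPM, Dux OE at 985 and 973 CPM and Dux KD Zscan4 OE at 1071 and 886 CPM. Each of these overlapped its neighbour in the order, so that their ranks are not separated by the replicates. SE KO PlaB stood at 744 and 898 CPM, Dux KD PlaB at 813 and 819 CPM and the libraries labelled Dux R70A OE at 768 and 675 CPM. The low end was RA at 503 and 530 CPM, Dux KD RA at 386 and 377 CPM, SE KO RA at 95.1 and 94.3 CPM and PlaB at 92.1 and 92.2 CPM, with no overlap between any 2 neighbours among these 4. In all, 6 of 12 neighbouring pairs of groups overlapped.

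Nr5a2, the other nuclear receptor, was highest in ESC, with 233 and 230 CPM. Next came SE KO Dux OE at 219 and 229 CPM, Dux OE at 188 and 187 CPM and Zscan4 OE at 183 and 189 CPM. The middle groups were Dux KD Zscan4 OE at 165 and 164 CPM, Dux KD PlaB at 159 and 162 CPM and RA at 157 and 154 CPM. DMSO (134 and 132 CPM), SE KO PlaB (133 and 133 CPM) and the libraries labelled Dux R70A OE (127 and 129 CPM) lay close together, and of the 12 neighbouring pairs 2 overlapped. Far below were Dux KD RA at 68.5 and 66.8 CPM, SE KO RA at 57.4 and 56.3 CPM and PlaB at 9.78 and 8.89 CPM.

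Tfcp2l1, the STAT3 target, had the tightest replicates, with a median coefficient of variation of 1.07%, and 1 of 12 neighbouring pairs overlapped. It was highest in ESC, at 1594 and 1619 CPM, and lowest in SE KO RA, at 393 and 367 CPM. DMSO was the second lowest group, at 641 and 642 CPM, followed by Zscan4 OE at 817 and 861 CPM. The other 9 groups had means between 1009 CPM (PlaB) and 1497 CPM (SE KO Dux OE).

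Tbx3, the T-box factor, was highest in RA (424 and 439 CPM), Dux KD RA (430 and 426 CPM), SE KO PlaB (430 and 389 CPM) and Dux KD Zscan4 OE (420 and 329 CPM), 4 groups in which each overlapped the next. Zscan4 OE (303 and 312 CPM) and ESC (298 and 316 CPM) overlapped as well. The lowest groups were SE KO RA at 157 and 160 CPM and PlaB at 105 and 130 CPM, and 4 of 12 neighbouring pairs overlapped. The first part of Tbx3 overlaps the antisense gene Tbx3os1, which the table counts separately and whose strand handling the sources used here do not give. Tbx3os1 had 351 and 411 counts in PlaB, equal to 16.2% and 14.3% of the Tbx3 counts there, and 372 and 238 counts in SE KO PlaB, or 3.75% and 2.85%, whereas in the other 11 groups the share was at most 2.27%.

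Prdm14, the repressor of FGF receptor signalling, was highest in ESC (49.1 CPM in both libraries) and Dux KD Zscan4 OE (55.6 and 42.3 CPM), and lowest in PlaB, where the replicates of 2.86 and 5.58 CPM differed most for this gene relative to their mean. SE KO RA, at 13.8 and 10.9 CPM, was the second lowest group. Of the 12 neighbouring pairs 5 overlapped.

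The highest levels of Zfp42 were in Zscan4 OE (1280 and 1233 CPM), PlaB (1235 and 1270 CPM) and Dux KD Zscan4 OE (1317 and 1148 CPM), which overlapped each other, above DMSO (952 and 941 CPM) and ESC (850 and 866 CPM). RA at 353 and 324 CPM and SE KO RA at 139 and 148 CPM were lowest, and 3 of 12 neighbouring pairs overlapped.

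Dppa3 was near the depth limit in most groups. It stood at 11.9 and 10.8 CPM in PlaB and at 5.76 and 5.70 CPM in Zscan4 OE, and every other library was at 2.18 CPM or less. In ESC it had 11 and 6 counts (0.685 and 0.400 CPM), and in SE KO PlaB 0.477 and 0.466 CPM. Its median coefficient of variation between replicates was 15.7%, and 7 of 12 neighbouring pairs overlapped.

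Over the 13 group means of log2 CPM, the regulators did not vary as a block. Pearson r was 0.90 between Prdm14 and Nr5a2, 0.88 between Esrrb and Nr5a2, and 0.85 between Esrrb and Prdm14. Between Zfp42 and Nr5a2 r was 0.06, and between Zfp42 and Esrrb 0.48. These values lean on PlaB: over the 12 groups without it, r between Zfp42 and Esrrb was 0.90 and between Zfp42 and Nr5a2 0.66, while r between Esrrb and Nr5a2 was 0.86. Dppa3 had a negative r with 5 of the other 6 regulators over all 13 groups and an r of 0.48 with Zfp42, but without PlaB its r was positive with Esrrb (0.30), Nr5a2 (0.25) and Prdm14 (0.15) as well. The groups share 1 scaling and 1 cell line, and r is given as a description only.

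**Figure D2:**
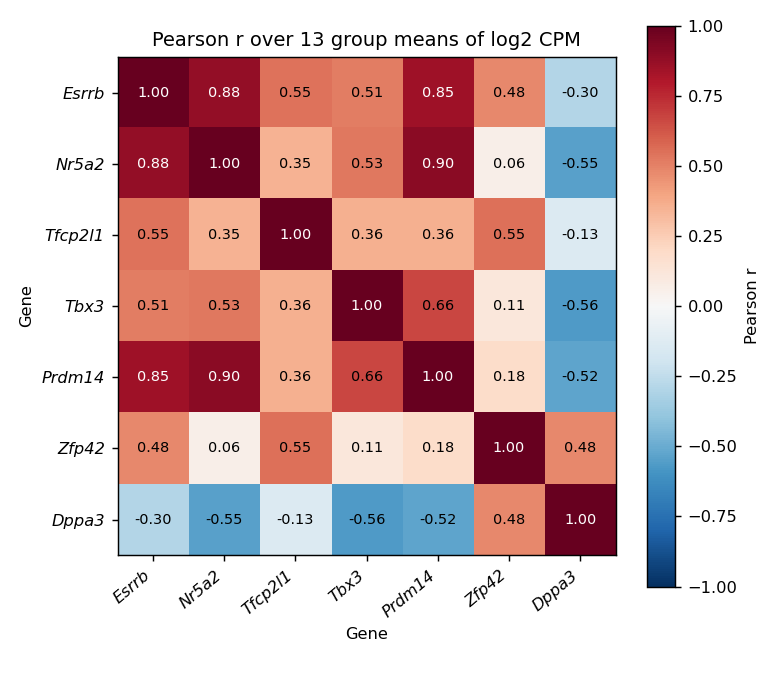
Pearson r between each pair of regulators over the 13 group means of log2 CPM, coloured from -1 (blue) to 1 (red). Esrrb, Nr5a2 and Prdm14 form the high corner (0.85 to 0.90), and Dppa3 is negative with every regulator except Zfp42, although without PlaB, which is not plotted, it was positive with Esrrb (0.30), Nr5a2 (0.25) and Prdm14 (0.15) too.

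Among 12667 other genes expressed at a mean log2 CPM of 1 or more, the 2 whose group means were most like each regulator, by the same r over 13 groups, were named. They were Etv5 (0.97), an ETS-family factor responsive to FGF, and Zbtb11 (0.95) for Esrrb, and Sart1 (0.97), a splicing factor, and Gga2 (0.97) for Nr5a2. For Tfcp2l1 they were Pafah2 (0.97) and Nat8f4 (0.94), and for Tbx3 Dnajb12 (0.91) and Cited2 (0.89). For Prdm14 they were Ints6 (0.96), a subunit of the Integrator complex, and Gm10167 (0.96), and for Zfp42 Dnajc7 (0.98) and Pum3 (0.97). For Dppa3 they were Atp6v1c1 (0.93), a subunit of the proton pump of endosomes and lysosomes, and Ccdc163 (0.92).

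Differences between groups were tested with edgeR's quasi-likelihood F-test on the counts of all 26 libraries in 1 model. A gene was called higher or lower at a Benjamini-Hochberg adjusted p under 0.05, taken over all genes tested, together with a log2 fold change of at least 1 in size. RA and PlaB share the DMSO libraries, and the Dux, Dux R70A and Zscan4 constructs share the ESC libraries. The RA, PlaB, Zscan4 OE and Dux OE libraries in turn serve as controls for Dux KD or SE KO. Thus PlaB against DMSO, Dux KD PlaB against PlaB and SE KO PlaB against PlaB all use the PlaB libraries. Comparisons that share libraries are not independent of each other. In bulk RNA, fewer cells that express a gene and less RNA in each cell cannot be told apart.

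PlaB split the regulators. Nr5a2, Esrrb and Prdm14 fell by 14.2-, 12.6- and 8.47-fold against DMSO, Tbx3 fell by 2.09-fold, and Dppa3 rose 7.98-fold. Zfp42 and Tfcp2l1 had higher means in PlaB, by less than 2-fold. Thus 4 of 7 were called lower and 1 higher, where 26.6% of all genes tested were called lower and 32.3% higher, so that a call as such is common in this comparison.

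The nuclear receptors showed the widest gap. Nr5a2 was at 134 and 132 CPM in DMSO and 9.78 and 8.89 CPM in PlaB, and its log2 fold change was -3.83 ± 0.0805 (SE) with an edgeR adjusted p of 5.92e-24. Esrrb went from 1122 and 1198 CPM to 92.1 and 92.2 CPM, a log2 fold change of -3.65 ± 0.0988 with an edgeR adjusted p of 7.46e-22. In both genes the replicates of each group were far closer to each other than the groups were. Prdm14 was at 38.0 and 34.1 CPM in DMSO against 2.86 and 5.58 CPM in PlaB (log2 fold change -3.08 ± 0.194, edgeR adjusted p 4.86e-14), with the PlaB replicates apart but both below every other library. Tbx3 was at 243 and 249 CPM in DMSO and at 105 and 130 CPM in PlaB (log2 fold change -1.06 ± 0.0949, edgeR adjusted p 8.15e-11), without overlap, and its log2 fold change was -0.91 with RLE scaling or DESeq2 and -0.80 with library size only, short of the 2-fold threshold.

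Dppa3 went the other way, from 1.13 and 1.70 CPM in DMSO to 11.9 and 10.8 CPM in PlaB (log2 fold change 3.00 ± 0.309, edgeR adjusted p 1.43e-09). Tfcp2l1 was at 641 and 642 CPM in DMSO and at 1019 and 999 CPM in PlaB (log2 fold change 0.65 ± 0.0656, edgeR adjusted p 8.33e-10). Zfp42 was at 952 and 941 CPM in DMSO and at 1235 and 1270 CPM in PlaB (log2 fold change 0.40 ± 0.0708, edgeR adjusted p 1.15e-05). Both passed the adjusted p but not the 2-fold threshold. Against ESC in place of DMSO, the Tfcp2l1 difference had the opposite sign, with a log2 fold change of -0.67.

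Other cell type markers moved with PlaB. The summed level of 10 markers of 2C-like cells was 5.90 and 3.89 CPM in DMSO and 8352 and 8212 CPM in PlaB, where all 10 had over 3 counts. Trophectoderm markers summed to 28.6 and 29.7 CPM in DMSO and 445 and 460 CPM in PlaB, with all 8 detected. Of 7 tested 6 were called higher and 1 lower. Krt8 alone stood at 302 CPM in PlaB, while Eomes went from 12.2 CPM in DMSO to 4.21 CPM (group means). Primitive endoderm markers summed to 73.0 and 88.1 CPM in PlaB against 184 and 195 CPM in DMSO, with Foxa2 at 0 in both groups. Their members went both ways, however. Called higher were 4 of 11, among them Sox17 (log2 fold change 4.06, from 0.197 CPM in DMSO) and Pdgfra (3.72). Called lower were 3, among them Col4a2 (-2.72). The 4 ESC markers (Pou5f1, Sox2, Nanog and Sall4) summed to 2581 and 2688 CPM in DMSO and 1407 and 1333 CPM in PlaB. They also went both ways, with Sall4 up from 229 to 1066 CPM and the other 3 called lower. Sox2 fell from 592 to 26.2 CPM and Nanog from 911 to 74.1 CPM (group means). The part of these shifts in the regulators' values was not tested.

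Genes around the regulators moved as follows in PlaB against DMSO, where the median log2 fold change of all genes tested was 0.22. Among 7 genes of the LIF-STAT3 input 5 were called lower and none higher, with a median of -1.57, led by the shared receptor subunit Il6st (-3.62), the phosphatase Ptpn11 (-2.30) and the LIF receptor Lifr (-1.75). Of 8 genes of the Wnt-GSK3 input 7 were lower and 1 higher, including the kinase Gsk3a (-6.24) and the nuclear effector Lef1 (-3.01). Of 8 FGF-ERK genes 5 were lower and 2 higher, with a median of -1.98, led by the ligand Fgf4 (-5.77), the ETS factor Etv4 (-3.66) and the feedback inhibitor Spry4 (-2.85). Of 6 core pluripotency genes Sox2 (-4.50) and Nanog (-3.62) were among 3 called lower, and Sall4 (2.22) was the 1 called higher. Of 18 further naive network genes 7 were lower and 5 higher, with a median of -0.69, and the largest changes were those of Fgf4 again, Gbx2 (-4.48) and Klf2 (-4.18). Of 12 formative and primed genes 9 were lower and 1 higher, with a median of -2.48. Among the largest falls were those of the zinc-finger gene Zic5 (-5.72) and the forkhead gene Foxd3 (-5.28), the latter at only 0.188 CPM in PlaB. Of 8 genes of the DNA methylation machinery 6 were lower, among them the maintenance factors Dnmt1 (-2.01) and Uhrf1 (-1.77) and the dioxygenase Tet3 (-1.95), with a median of -1.37. Some genes stand in more than 1 of these lists. The lists do not separate activators from inhibitors of a pathway, and pathway activity was not measured.

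Against DMSO, RA lowered Zfp42, Esrrb and Dppa3, the last at low counts and not against ESC, whereas Tfcp2l1, Tbx3 and Nr5a2 had higher means in RA. Thus 3 of 7 were called lower and none higher against DMSO, where 10.4% of all genes tested were called lower and 20.6% higher. Zfp42 was at 952 and 941 CPM in DMSO and at 353 and 324 CPM in RA, a log2 fold change of -1.48 ± 0.0725 (edgeR adjusted p 1.71e-15). Esrrb was at 1122 and 1198 CPM in DMSO and at 503 and 530 CPM in RA, a log2 fold change of -1.17 ± 0.0893 (edgeR adjusted p 1.33e-11), which was -0.97 with library size only. The groups did not overlap for either gene. Dppa3, at 1.13 and 1.70 CPM in DMSO and 0.485 and 0.606 CPM in RA, had a log2 fold change of -1.37 ± 0.421 (edgeR adjusted p 0.00658). That call was lost without DMSO replicate 2 (log2 fold change -1.06) or without RA replicate 1 (-1.23), and with ESC as the control the log2 fold change was -0.0074 (edgeR adjusted p 1).

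Tfcp2l1 and Tbx3 both had log2 fold changes of 0.81 in RA against DMSO. Tfcp2l1 went from 641 and 642 CPM to 1118 and 1135 CPM (SE 0.0657, edgeR adjusted p 3.95e-11), and Tbx3 from 243 and 249 CPM to 424 and 439 CPM (SE 0.0932, edgeR adjusted p 2.62e-08). Both stayed under the 2-fold threshold except with library size only, where both log2 fold changes were 1.01. Nr5a2 was at 157 and 154 CPM in RA (log2 fold change 0.22 ± 0.0657, edgeR adjusted p 0.00485) and Prdm14 at 28.5 and 24.7 CPM (log2 fold change -0.44 ± 0.16, edgeR adjusted p 0.0213). Against ESC, the signs of Tfcp2l1 and Nr5a2 turned, with log2 fold changes of -0.51 and -0.58.

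Primitive endoderm markers, which RA can induce, summed to 184 and 195 CPM in DMSO and to 941 and 1009 CPM in RA, with all 11 detected, and all 8 genes of the retinoic acid response were called higher in edgeR's test, among them Cyp26a1 (log2 fold change 7.82), the enzyme that degrades RA, and the retinol transporter Stra6 (6.92). The 10 markers of 2C-like cells summed to 627 and 533 CPM in RA. The part of these cells in the regulators' values was not tested. Of the 18 further naive genes 10 were called lower and 2 higher, with a median log2 fold change of -1.05 against 0.10 over all genes, and the largest fall was that of Tcl1 (-4.26), a coactivator of AKT. Of 6 core genes 4 were lower, with a median of -1.32, led by Utf1 (-4.41) and the RNA-binding protein Lin28a (-2.49). Of 8 FGF-ERK genes 6 were lower and 1, the receptor Fgfr2 (3.06), was higher.

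In Dux OE 6 of the regulators had lower levels than in ESC, each by less than 2-fold, and Dppa3 alone was called. All 7 had an adjusted p under 0.05 against ESC, 6 on the lower side, where 27.5% of all genes tested passed that p in either direction. With the 2-fold threshold, 1 of 7 was called, higher, where 7.38% of all genes were called higher and 2.12% lower. Among the 6, Prdm14 had the largest log2 fold change, -0.85 ± 0.163, with 49.1 CPM in both ESC libraries and 28.6 and 25.9 CPM in Dux OE (edgeR adjusted p 0.000232). Tbx3 followed at -0.73 ± 0.0943, with 298 and 316 CPM in ESC and 184 and 186 CPM in Dux OE (edgeR adjusted p 1.02e-06). Zfp42, Tfcp2l1, Nr5a2 and Esrrb had log2 fold changes of -0.46, -0.34, -0.30 and -0.26, and ESC and Dux OE did not overlap for any of the 7 genes.

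Dppa3 had 0.685 and 0.400 CPM in ESC and 1.97 and 1.42 CPM in Dux OE (log2 fold change 1.62 ± 0.456, edgeR adjusted p 0.00856). The call was lost without ESC replicate 2 (1.26) or without Dux OE replicate 1 (1.34), and with DMSO as the control the log2 fold change was 0.25. With that control the signs of Tfcp2l1 and Nr5a2 also turned, to 0.99 and 0.50. The 10 markers of 2C-like cells summed to 28.0 and 23.3 CPM in ESC and to 3799 and 3923 CPM in Dux OE. Esrrb was at 1165 and 1182 CPM in ESC and at 985 and 973 CPM in Dux OE, sampled at 24 h. In PlaB, given for 4 days, the same markers stood at 8352 and 8212 CPM with Esrrb at 92.1 and 92.2 CPM. The times and controls differ, and a link between these markers and Esrrb was not tested.

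**Figure D3:**
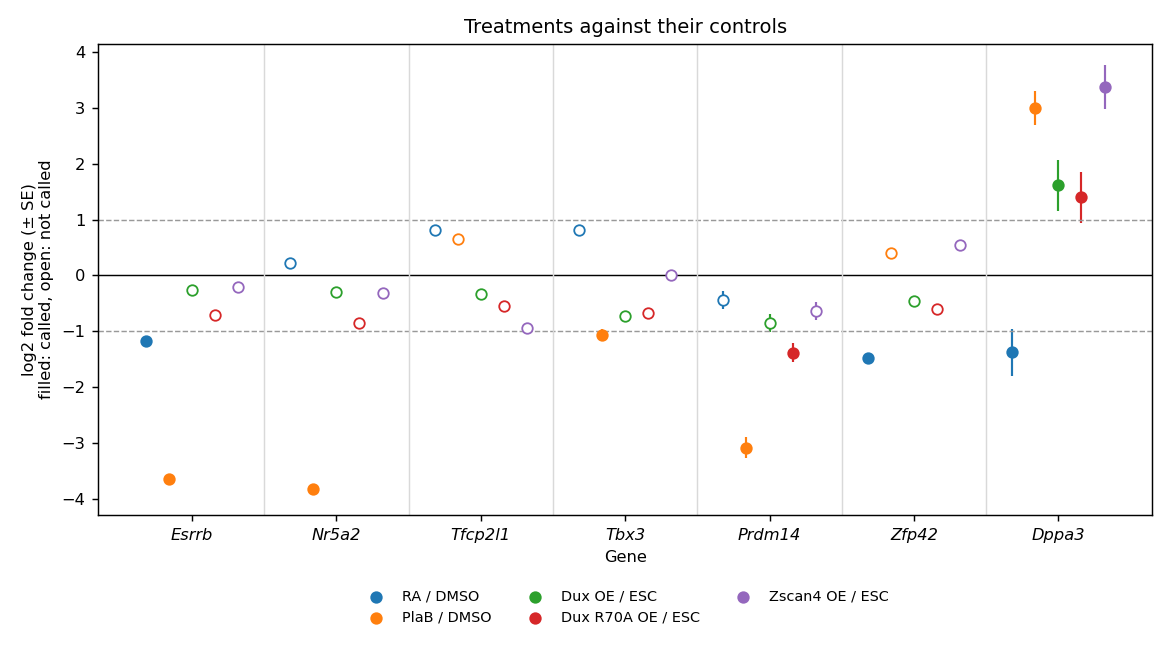
Log2 fold change of each regulator in 5 treatments against the control named in the legend, with the standard error as a bar. Filled points were called, open points were not, and the dashed lines mark a log2 fold change of 1 in either direction. PlaB holds the largest falls (Nr5a2 -3.83, Esrrb -3.65, Prdm14 -3.08), and Dppa3 is highest in Zscan4 OE (3.38) and PlaB (3.00).

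The libraries labelled Dux R70A OE had lower levels than ESC for the same 6 regulators, and 2 of 7 were called, Prdm14 lower and Dppa3 higher, where 6.72% of all genes tested were called lower and 10.2% higher. Prdm14 was at 49.1 CPM in both ESC libraries and at 21.8 and 15.7 CPM here, a log2 fold change of -1.38 ± 0.166 (edgeR adjusted p 1.26e-07), which was -0.94 with DMSO as the control. Dppa3 was at 1.40 and 1.51 CPM (log2 fold change 1.40 ± 0.455, edgeR adjusted p 0.0138), and this call was lost without ESC replicate 2 (1.06) or Dux R70A OE replicate 2 (1.34) and with the DMSO control (0.03). Nr5a2, at 127 and 129 CPM, had a log2 fold change of -0.86 and Esrrb, at 768 and 675 CPM, one of -0.70.

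Compared directly with Dux OE, none of the 7 was called in the libraries labelled Dux R70A OE, where 13.6% of all genes tested were called in either direction. By DESeq2 0 were called as well, and at an unadjusted edgeR p under 0.05 there were 4. By the edgeR adjusted p alone 4 passed, all lower in the R70A libraries, namely Nr5a2 (-0.55), Prdm14 (-0.53), Esrrb (-0.44) and Tfcp2l1 (-0.22), where 38.7% of all genes passed. Zfp42 (-0.14 ± 0.0711), Tbx3 (0.06 ± 0.0943) and Dppa3 (-0.22 ± 0.378) did not pass it, and for Zfp42 the sign turned with library size only (0.051). The markers of 2C-like cells summed to 0.591 and 0.628 CPM in the R70A libraries, below ESC, with Zfp352, Tcstv1, Tdpoz4 and Usp17lc at 0 counts in both.

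Zscan4 OE raised Dppa3, from 0.685 and 0.400 CPM in ESC to 5.76 and 5.70 CPM, a log2 fold change of 3.38 ± 0.386 (edgeR adjusted p 1.14e-07). It was the 1 of 7 called, where 7.25% of all genes tested were called higher and 4.39% lower. Tfcp2l1 was at 1594 and 1619 CPM in ESC and at 817 and 861 CPM in Zscan4 OE, a log2 fold change of -0.94 ± 0.0658 (edgeR adjusted p 2.38e-11), which had the opposite sign, 0.39, against DMSO. Zfp42 was at 850 and 866 CPM in ESC and at 1280 and 1233 CPM in Zscan4 OE (log2 fold change 0.55 ± 0.071, edgeR adjusted p 6.98e-07). Prdm14 and Nr5a2 had log2 fold changes of -0.64 and -0.32, and Tbx3, at 0.00 ± 0.093, overlapped between the groups. Nr5a2 turned to 0.48 against DMSO. The 2C-like markers summed to 311 and 318 CPM in Zscan4 OE, with all 10 detected.

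The controls themselves differed. DMSO against ESC called Tfcp2l1 lower (log2 fold change -1.32 ± 0.0664, edgeR adjusted p 3e-14) and Dppa3 higher (1.37 ± 0.454, edgeR adjusted p 0.016), 2 of 7 where 7.91% of all genes tested were called lower and 8.32% higher. Nr5a2, at 233 and 230 CPM in ESC and 134 and 132 CPM in DMSO, had a log2 fold change of -0.80. Esrrb (-0.02) and Zfp42 (0.14) did not pass the adjusted p. The Dppa3 call was lost without ESC replicate 2 (1.05) or DMSO replicate 2 (1.05). Solvent, time in culture and the preparation of the libraries cannot be told apart here.

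Dux KD in PlaB moved Nr5a2, Esrrb, Prdm14 and Dppa3 back in the direction of their DMSO levels. Against PlaB, Nr5a2, Esrrb and Prdm14 were called higher by 17.2-, 8.86- and 6.89-fold and Dppa3 lower by 9.30-fold, 4 of 7 where 26.1% of all genes tested were called higher and 28.8% lower. Nr5a2 was at 9.78 and 8.89 CPM in PlaB and at 159 and 162 CPM in Dux KD PlaB (log2 fold change 4.10 ± 0.0808, edgeR adjusted p 2.48e-24), above the 134 and 132 CPM of DMSO. Esrrb was at 92.1 and 92.2 CPM in PlaB and at 813 and 819 CPM with the knockdown (log2 fold change 3.15 ± 0.0969, edgeR adjusted p 1.25e-20), below both DMSO libraries. Prdm14 was at 29.9 and 28.7 CPM (log2 fold change 2.78 ± 0.196, edgeR adjusted p 6.17e-13), also below DMSO. Dppa3 was at 1.36 and 1.08 CPM (log2 fold change -3.22 ± 0.319, edgeR adjusted p 7.38e-10), which overlapped DMSO.

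The other 3 had smaller differences in the same comparison. Tbx3 was at 208 and 204 CPM in Dux KD PlaB, a log2 fold change of 0.80 ± 0.0948 (edgeR adjusted p 1.98e-08), and Zfp42 at 835 and 822 CPM, a log2 fold change of -0.60 ± 0.071 (edgeR adjusted p 2.32e-08). Tfcp2l1, at 1176 and 1179 CPM, had a log2 fold change of 0.22. The markers of 2C-like cells summed to 6.55 and 6.40 CPM, close to DMSO, and trophectoderm markers to 36.9 CPM in both libraries with Cdx2 and Elf5 at 0. Of 7 trophectoderm markers tested 5 were called lower against PlaB and 1 higher. Primitive endoderm markers summed to 310 and 316 CPM, above both PlaB (73.0 and 88.1 CPM) and DMSO (184 and 195 CPM), with 6 of 11 called higher and 4 lower against PlaB. The part of these markers in the regulators' values was not tested. Among the surrounding genes Il6st (3.71), Gsk3a (6.14), Fgf4 (5.08), Sox2 (4.78) and Klf2 (4.44) were among the genes called higher. Called higher were 5 of 7 LIF-STAT3 genes, 6 of 8 Wnt-GSK3 genes, 5 of 8 FGF-ERK genes and 3 of 6 core genes, and called lower were 0, 1, 2 and 1 of them, among these Fgfr2 (-2.97) and Sall4 (-2.16). The 18 further naive genes went both ways, with 6 higher, 4 lower, among them Dppa2 (-3.75), and a median of 0.16. The median log2 fold change of all genes was -0.14.

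SE KO in PlaB moved the same 4 regulators and Tbx3 away from their PlaB levels, towards or past those of DMSO. Against PlaB, 5 of 7 were called, Nr5a2, Esrrb, Prdm14 and Tbx3 higher and Dppa3 lower, where 25.9% of all genes tested were called higher and 26.1% lower. Nr5a2 was at 133 CPM in both libraries (log2 fold change 3.83 ± 0.0803, edgeR adjusted p 1.74e-23), level with DMSO. Esrrb, at 744 and 898 CPM, had a log2 fold change of 3.16 ± 0.0968 (edgeR adjusted p 1.39e-20). Prdm14, at 20.0 and 20.3 CPM, had one of 2.25 ± 0.197 (edgeR adjusted p 6.35e-11), with both libraries below those of Dux KD PlaB. Tbx3, at 430 and 389 CPM, had one of 1.80 ± 0.0959 (edgeR adjusted p 1.61e-15) and lay above DMSO and ESC. Dppa3, at 0.477 and 0.466 CPM, fell by 4.57 on the log2 scale (SE 0.353, edgeR adjusted p 4.54e-12), below both DMSO libraries.

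Zfp42, at 873 and 870 CPM, had a log2 fold change of -0.52 in SE KO PlaB against PlaB and Tfcp2l1, at 1275 and 1354 CPM, one of 0.38. The 2C-like markers summed to 696 and 569 CPM in SE KO PlaB, between DMSO and PlaB, while primitive endoderm markers summed to 562 and 619 CPM and trophectoderm markers to 168 and 280 CPM, both above DMSO. Of 7 trophectoderm markers tested against PlaB, Hand1 (3.55) and Eomes (2.11) were called higher and Krt8 (-1.48) lower. The part of all these markers in the regulators' values was not tested. Foxd3 (6.85), Klf2 (4.29) and Fgf4 (3.95) had the largest rises of the formative, naive and FGF-ERK lists. In these lists 8 of 12, 4 of 18 and 4 of 8 genes were called higher and 0, 4 and 1 called lower. The Foxd3 value rests on a PlaB level of 0.188 CPM, near the depth limit.

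**Figure D4:**
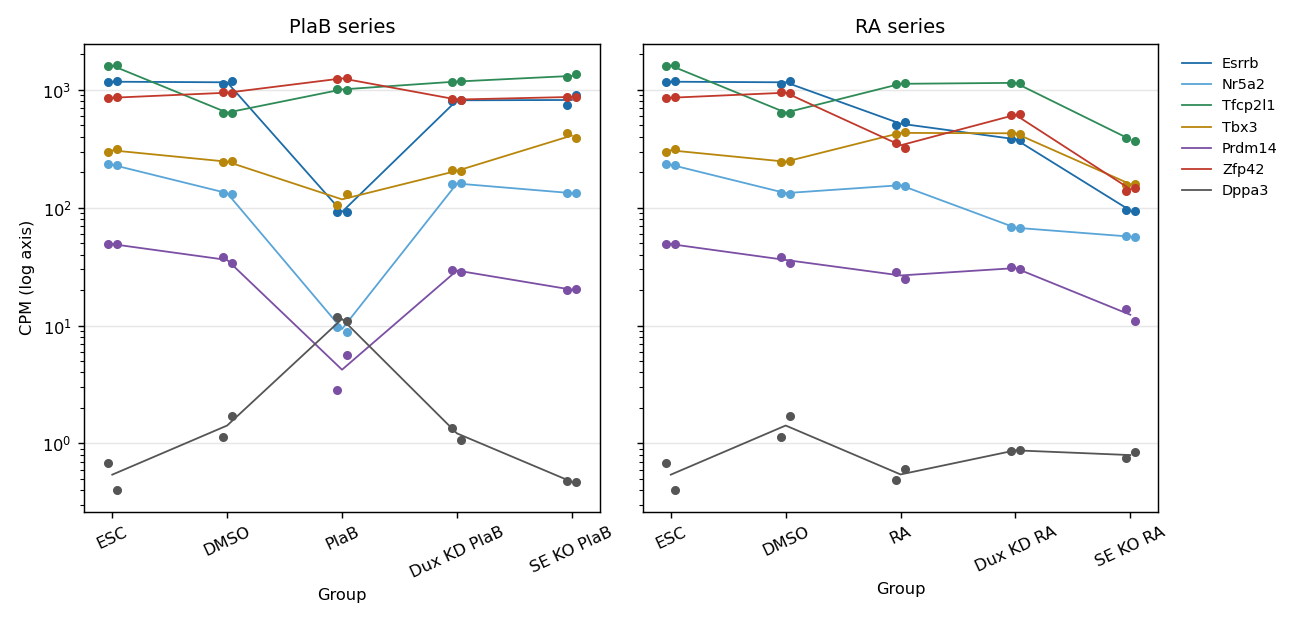
Levels in the PlaB series (left) and the RA series (right) as CPM on a log axis. Points are replicates, and lines join the group means of 1 gene without implying an order. In the PlaB series Esrrb, Nr5a2 and Prdm14 dip in PlaB alone and Dppa3 peaks there, whereas in the RA series 6 regulators are lowest in SE KO RA, the exception being Dppa3.

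SE KO in RA lowered 6 of the 7 regulators, all but Dppa3, where 11.0% of all genes tested were called lower and 6.57% higher. Esrrb fell most, from 503 and 530 CPM in RA to 95.1 and 94.3 CPM (log2 fold change -2.45 ± 0.0943, edgeR adjusted p 5.58e-17). Tfcp2l1 fell from 1118 and 1135 CPM to 393 and 367 CPM (-1.57 ± 0.0669, edgeR adjusted p 5.04e-16). Nr5a2 fell from 157 and 154 CPM to 57.4 and 56.3 CPM (-1.45 ± 0.0678, edgeR adjusted p 2.97e-15). RA and SE KO RA did not overlap for any of these 3 genes, and the replicates of each group lay close together.

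Tbx3 fell from 424 and 439 CPM in RA to 157 and 160 CPM in SE KO RA (log2 fold change -1.45 ± 0.0946, edgeR adjusted p 2.67e-12), and Zfp42 from 353 and 324 CPM to 139 and 148 CPM (-1.24 ± 0.0729, edgeR adjusted p 3.34e-13). Prdm14 fell from 28.5 and 24.7 CPM to 13.8 and 10.9 CPM (-1.11 ± 0.17, edgeR adjusted p 5.69e-06). Dppa3, at 0.745 and 0.846 CPM, had a log2 fold change of 0.55 ± 0.447 and did not pass (edgeR adjusted p 0.337). The library with the conflicting genotype label, replicate 1, lay beside replicate 2 for every regulator, and without it the same 6 were called, while without replicate 2 the Prdm14 call was lost (-0.94).

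In SE KO RA the 2C-like markers summed to 63.4 and 59.6 CPM and primitive endoderm markers to 469 and 480 CPM, both below RA, and trophectoderm markers to 112 and 108 CPM against 63.3 and 72.2 CPM in RA, with Elf5 at 0. Of 7 trophectoderm markers tested 4 were called higher than in RA and 1, Gata3 (-1.49), lower. The 4 ESC markers, all detected, summed to 1205 and 1169 CPM against 1641 and 1706 CPM in RA. Of the 18 further naive genes 8 were called lower and 3 higher, with a median log2 fold change of -0.43 against -0.04 over all genes, led by Dppa2 (-3.19), a chromatin protein of pluripotent cells, Klf4 (-2.38) and the nuclear receptor Nr0b1 (-1.88). No gene of 6 core genes, 7 LIF-STAT3 genes and 8 Wnt-GSK3 genes was called by edgeR or DESeq2, while 4, 3 and 3 of them had an unadjusted edgeR p under 0.05. Of the FGF-ERK genes Etv5 (-1.68) was lower and Fgf4 (1.04) higher, and of the 12 formative and primed genes 3 were lower and none higher, among them Sox3 (-1.30).

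Dux KD in RA called 1 regulator, where 4.53% of all genes tested were called lower and 6.41% higher. Nr5a2 fell from 157 and 154 CPM in RA to 68.5 and 66.8 CPM (log2 fold change -1.20 ± 0.0677, edgeR adjusted p 8.25e-13). Zfp42 was at 353 and 324 CPM in RA and at 610 and 619 CPM with the knockdown (0.86 ± 0.0717, edgeR adjusted p 7.82e-10), and Esrrb at 386 and 377 CPM had a log2 fold change of -0.44. Tfcp2l1 (0.03), Tbx3 (-0.01), Prdm14 (0.21) and Dppa3 (0.68) did not pass the adjusted p. The 2C-like markers summed to 409 and 400 CPM, against 627 and 533 CPM in RA. Primitive endoderm markers summed to 578 and 583 CPM, against 941 and 1009 CPM in RA, and trophectoderm markers to 99.5 and 99.6 CPM, against 63.3 and 72.2 CPM. The 11 primitive endoderm markers went both ways, with 3 called lower, among them Col4a2 (-1.35), and 1, Sox17 (1.88), higher. Their median log2 fold change was 0.46, so the lower sum does not describe the typical marker. The part of these markers in the regulators' values was not tested. Of the 18 further naive genes 4 were higher and none lower, among them Manba (2.39) and Tet2 (1.82).

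In Dux KD Zscan4 OE, Dppa3 was the 1 of 7 called against Zscan4 OE, where 5.35% of all genes tested were called lower and 5.78% higher. It fell from 5.76 and 5.70 CPM to 0.844 and 2.18 CPM (log2 fold change -1.95 ± 0.332, edgeR adjusted p 4.8e-05), from 89 and 105 counts to 13 and 29. The 2C-like markers summed to 311 and 318 CPM in Zscan4 OE and to 18.6 and 16.9 CPM here, with all 10 called lower and Zfp352 and Tcstv1 at 0, and their part in the Dppa3 value was not tested. Tfcp2l1 went from 817 and 861 CPM to 1204 and 1262 CPM (0.56 ± 0.0655, edgeR adjusted p 2.6e-07) and Prdm14 from 32.5 and 30.7 CPM to 55.6 and 42.3 CPM (0.64 ± 0.161, edgeR adjusted p 0.00306). Esrrb (-0.05) and Zfp42 (-0.03) overlapped between the groups. The treatment field of these libraries reads "no", and their titles name the Zscan4 construct but neither doxycycline nor a time. Whether doxycycline was given, and whether the 2 groups match in time, is therefore not known.

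In Dux OE, SE KO called none of the 7 regulators, where 6.30% of all genes tested were called in either direction. By DESeq2 0 were called too, while 5 had an unadjusted edgeR p under 0.05. By the edgeR adjusted p alone 4 passed, all higher with SE KO, namely Zfp42 (0.51), Tbx3 (0.32), Nr5a2 (0.25) and Tfcp2l1 (0.23), where 25.4% of all genes passed. Zfp42 was at 617 and 628 CPM in Dux OE and at 879 and 897 CPM in SE KO Dux OE, and Esrrb at 985 and 973 CPM and at 978 and 1044 CPM. The 2C-like markers summed to 3799 and 3923 CPM in Dux OE and to 1822 and 1594 CPM in SE KO Dux OE. Fibroblast markers summed to 47.2 and 44.5 CPM in Dux OE, with 3 of 7 over 3 counts and Dcn, Lum and Postn at 0, and to 116 and 117 CPM in SE KO Dux OE, with 7 of 7 over 3 counts. Their part in these values was not tested.

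**Figure D5:**
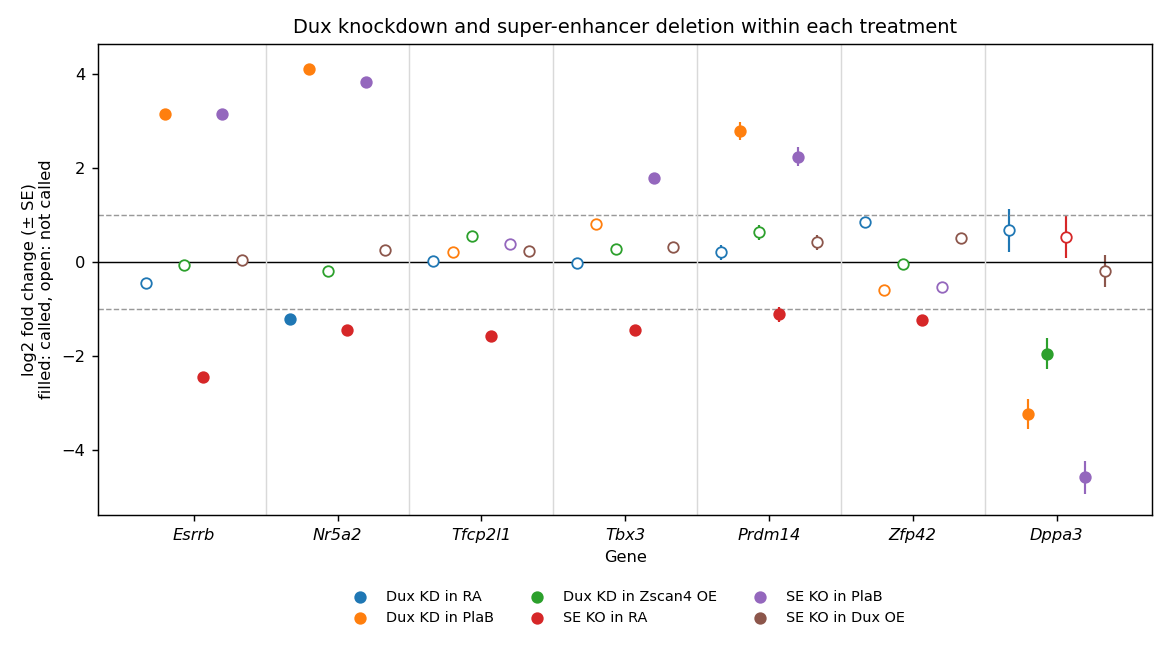
Log2 fold change of each regulator on Dux KD or SE KO within the treatment named in the legend, with the standard error as a bar, filled where called and open where not. Dashed lines mark a log2 fold change of 1 in either direction. SE KO in PlaB and SE KO in RA lie on opposite sides of 0 for Esrrb (3.16 and -2.45), Nr5a2 (3.83 and -1.45), Tbx3 (1.80 and -1.45) and Prdm14 (2.25 and -1.11).

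Whether the effect of SE KO differed with the treatment was tested directly, as an interaction in the same edgeR model. Between PlaB and RA it differed for 6 of 7 regulators, where 28.3% of all genes tested differed to the higher and 20.7% to the lower side. Esrrb differed by 5.60 ± 0.135 on the log2 scale (edgeR adjusted p 5.69e-22), Nr5a2 by 5.28 ± 0.105 (2.1e-23), Prdm14 by 3.36 ± 0.26 (7.55e-12), Tbx3 by 3.24 ± 0.135 (1.57e-17), Tfcp2l1 by 1.95 ± 0.0931 (2.83e-16) and Dppa3 by -5.12 ± 0.585 (1.5e-08). Zfp42, the remaining regulator, had lower levels with SE KO in both treatments and differed by 0.71. Between RA and Dux OE the SE KO effect differed for 6 of 7, all lower in RA, where 12.1% of all genes tested differed to the lower and 8.75% to the higher side. Between PlaB and Dux OE it differed for 6 of 7, all but Tfcp2l1, where 24.5% of all genes tested differed to the higher and 20.6% to the lower side. The Zfp42 difference among these, -1.04, fell short of the threshold without the low-count filter (-0.99), with the compared groups alone (-0.99), without Dux OE replicate 1 (-0.96) or replicate 2 (-0.9991) and without SE KO Dux OE replicate 2 (-0.97).

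The effect of Dux KD differed between PlaB and RA for 5 of 7 regulators, where 25.5% of all genes tested differed to the higher and 26.6% to the lower side. The largest difference was that of Nr5a2, 5.30 ± 0.105 on the log2 scale (edgeR adjusted p 1.77e-23), which rose with the knockdown in PlaB and fell in RA. Esrrb differed by 3.59, Prdm14 by 2.58, Zfp42 by -1.46 and Dppa3 by -3.89. Between PlaB and Zscan4 OE it differed for 4 of 7, where 25.6% of all genes tested differed to the higher and 23.6% to the lower side. The Dppa3 difference among these 4, -1.27, was -0.35 (edgeR adjusted p 0.649) without Dux KD Zscan4 OE replicate 2, and the call was also lost without the low-count filter (-1.06), without PlaB replicate 1 (-1.09), without Dux KD PlaB replicate 2 (-0.99) and without Zscan4 OE replicate 2 (-1.23). Between RA and Zscan4 OE it differed for 2 of 7, Nr5a2 and Dppa3, where 6.22% and 6.04% did. The Nr5a2 difference of the last comparison, -1.02, was close to the threshold and fell short of it without the low-count filter (-0.98), with library size only (-0.87) and when any of 3 libraries was left out.

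Across the 13 comparisons of group pairs, Nr5a2, Esrrb and Prdm14 were called in the same direction as each other in PlaB, in Dux KD PlaB, in SE KO PlaB and in SE KO RA. The calls in PlaB, Dux KD PlaB and SE KO PlaB all rest on the same PlaB libraries. Tfcp2l1 was called lower in SE KO RA and in DMSO against ESC and in no other comparison. Zfp42 was called lower in RA and in SE KO RA and in no other. Of the 91 gene-by-comparison results 31 were called, and Dppa3 accounted for 9 of these at 6 to 246 counts a library. Calls were common over all genes too. Of the 20953 genes tested, between 1319 (SE KO Dux OE against Dux OE) and 12331 (PlaB against DMSO) were called in a comparison. The tally is therefore no result about the regulators as such.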

How the data were processed

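Poly(A) RNA-seq libraries of mouse ESCs were analysed from the table of whole-number read counts per gene that the authors deposited without normalization. The submitters' processing notes name FastQC, Trimmomatic, STAR, featureCounts, DESeq2 and mm10, while versions, strand setting and treatment of multi-mapping reads are not given in the sources used here. Samples were grouped by their titles. Counts of 26 libraries in 13 groups entered 1 quasi-likelihood model (edgeR 4.0.16 under R 4.3.3), with TMM scaling, filterByExpr (20953 of 55291 genes kept) and a prior count of 0.125. P-values were adjusted by the Benjamini-Hochberg method over all genes tested. Log2 CPM for r used a prior count of 2. The test code was tested on simulated data.

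The 7 regulators and all gene lists were chosen with earlier results of these data known. Named genes are the regulators, the 2 genes most like each, and called list genes among the 3 of their list with the largest change. Some genes at or near 0 counts in 1 group were left out, but Foxd3 (0.188 CPM in PlaB) and Sox17 (0.197 CPM in DMSO) were kept. Replicates were compared first: the chi-square per degree of freedom lay between 1.55 and 30.2, so each library counted as 1 replicate. The highest values were those of SE KO PlaB (30.2) and Dux KD Zscan4 OE (26.1), followed by SE KO Dux OE (9.81). Standard errors rest on a spread estimated for each gene over all groups, so they do not show the wider spread of these groups. With totals of 14401452 to 39402840 counts, precision is lowest for Dppa3. Alternatives were RLE or library-size scaling, no filter, DESeq2 1.42.0, the compared groups alone, a replicate block, the other control, a prior count of 0.5 for r and leaving out each replicate.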

Additional observations from a re-analysis of the deposited data

Results flagged for a closer look

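The results below stood out because edgeR's test of the difference between 2 effects, run in the model of all 26 libraries, found that Dux KD or SE KO acted on a regulator to a different extent, or in the other direction, in different treatments. Each value is a difference between 2 log2 fold changes. No explanation was weighed.

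For Dux KD, the effect in PlaB minus that in RA was 5.30 for Nr5a2, 3.59 for Esrrb, 2.58 for Prdm14, -1.46 for Zfp42 and -3.89 for Dppa3. The effect in PlaB minus that in Zscan4 OE was 4.28 for Nr5a2, 3.20 for Esrrb, 2.15 for Prdm14 and -1.27 for Dppa3, which was -0.35 (edgeR adjusted p 0.649) without Dux KD Zscan4 OE replicate 2 and lost its call under 4 other settings. The effect in RA minus that in Zscan4 OE was -1.02 for Nr5a2 and 2.62 for Dppa3. The Nr5a2 value fell short of the threshold with library size only (-0.87), without the low-count filter (-0.98) and without Zscan4 OE replicate 1 (-0.99), among other settings. The Dppa3 value rests on 13 and 29 counts in the Dux KD Zscan4 OE libraries, whose treatment label reads "no".

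For SE KO, the effect in PlaB minus that in RA was 5.60 for Esrrb, 5.28 for Nr5a2, 3.36 for Prdm14, 3.24 for Tbx3, 1.95 for Tfcp2l1 and -5.12 for Dppa3. The effect in PlaB minus that in Dux OE was 3.58 for Nr5a2, 3.11 for Esrrb, 1.82 for Prdm14, 1.48 for Tbx3, -1.04 for Zfp42, short of the threshold under 5 settings, and -4.39 for Dppa3. The effect in RA minus that in Dux OE was -2.49 for Esrrb, -1.80 for Tfcp2l1, -1.76 for Tbx3, -1.75 for Zfp42, -1.70 for Nr5a2 and -1.54 for Prdm14. In the 4 regulators Esrrb, Nr5a2, Prdm14 and Tbx3, SE KO libraries had higher levels than their controls in PlaB and lower levels in RA.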

How the results depend on the processing

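No regulator that was called changed its sign under any alternative run. With ESC in place of DMSO, the log2 fold changes of Tfcp2l1 and Nr5a2 in RA were -0.51 and -0.58 and that of Tfcp2l1 in PlaB was -0.67, all of the opposite sign. With DMSO in place of ESC, Tfcp2l1 turned to 0.99 in Dux OE, 0.77 in Dux R70A OE and 0.39 in Zscan4 OE, Nr5a2 turned to 0.50 in Dux OE and 0.48 in Zscan4 OE, and the number of regulators called was 0 in Dux OE and 0 in Dux R70A OE, while the calls over all genes went from 1992 to 3811 and from 3550 to 1897. With library size only, values near 0 changed sign: Zfp42 in Dux R70A OE against Dux OE (0.051), Tbx3 in Dux KD RA (0.057), Esrrb in DMSO against ESC (0.058), and the interactions of Tfcp2l1 between PlaB and RA for Dux KD (-0.073) and between PlaB and Dux OE for SE KO (-0.014). Without the low-count filter Esrrb in DMSO against ESC was 0.036, and 1 regulator in place of 2 differed in the Dux KD effect between RA and Zscan4 OE.

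With each replicate left out in turn, 0 to 1 regulators were called in Dux OE, 1 to 2 in Dux R70A OE, 1 to 2 in DMSO against ESC and 1 to 3 in the Dux KD effect between RA and Zscan4 OE. Values near 0 ranged across it: -0.028 to 0.051 for Tbx3 in Zscan4 OE, -0.035 to 0.012 for Tbx3 in Dux KD RA, -0.41 to 0.047 for Dppa3 in Dux R70A OE against Dux OE, -0.22 to 0.072 for Esrrb and -0.15 to 0.060 for Zfp42 in Dux KD Zscan4 OE, -0.78 to 0.22 for Dppa3 in SE KO Dux OE and -0.064 to 0.037 for Esrrb in DMSO against ESC. Over all genes, the fit of the compared groups alone called 1547 in place of 2332 genes in Dux KD Zscan4 OE, and 793 in place of 1319 were called in SE KO Dux OE without Dux OE replicate 2. Relative to TMM, library size only moved the median of all genes by 0.26 and RLE by 0.15 in PlaB against DMSO, and library size only raised the share of higher calls from 66.5% to 76.8% in RA, from 60.4% to 77.6% in Dux R70A OE, from 62.3% to 76.6% in Zscan4 OE, from 44.8% to 58.9% in Dux R70A OE against Dux OE and from 50.7% to 64.6% in the Dux KD effect between RA and Zscan4 OE. The cause of these changes was not tested. Replicate numbers did not pair the libraries (r of same-numbered deviations between -0.0473 and 0.0237), and with replicate number as a block the regulators called were unchanged in number in all 19 tests, for example 5 in PlaB and 6 in SE KO RA. Depth limits Dppa3, at 6 to 246 counts a library.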
